A study of Mus musculus with 28 samples.

Results

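The synaptic vesicle release machinery was followed in mouse cortex 48 h after controlled cortical impact (CCI), a mechanical brain injury, in Rbm5 knockout (KO) and wild type (WT) mice. Members were the transcript clusters, called rows here, whose single annotated gene symbol named a synaptotagmin (Syt), a VAMP, a syntaxin (Stx) or a syntaxin-binding protein (Stxbp). The symbols of synapsins 1 to 3, synaptophysin, Snap25, the Sv2 proteins, complexins, Rims, Unc13 proteins and Nsf were taken too, as were all symbols that begin with Rab3. This gave 86 symbols of 30145 that were the only symbol of a row, and each had 1 row. The last pattern also takes in Rab30 to Rab39, 12 genes that are not Rab3 isoforms, and 2 members are pseudogene rows whose sequence is shared with the parent gene. Sorted by role, 37 members belong to 6 roles in neurotransmitter release, and the other 49 are Rab3 regulators, further synaptotagmins, SNAREs and partners of general membrane traffic, Rab30 to Rab39 and pseudogenes.

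Each group held 7 animals aged 12 to 15 weeks. KO CCI and WT CCI mice received a craniotomy over the left parietal cortex and an impact at 6 m/s to a depth of 1.2 mm. KO sham and WT sham mice received anaesthesia with no craniotomy, so craniotomy and impact cannot be told apart. The labels give the genotype as KO or WT and do not state the kind of deletion, its cell type or the strain. Animals were perfused with PBS, cortical tissue was frozen, and 100 ng of Trizol-extracted total RNA was biotin-labelled for the MTA 1.0 array. Males numbered 3 in KO CCI, 4 in KO sham, 3 in WT CCI and 3 in WT sham. Values are log2 signal. In bulk tissue, fewer cells of a type and less RNA per cell cannot be told apart, and p-values measure a difference relative to the variation among these animals.

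Transmitter release rests on a complex of SNARE proteins that draws the vesicle onto the plasma membrane: syntaxin-1 and SNAP-25 on the target side and synaptobrevin (VAMP) on the vesicle. Rim and Munc13 proteins hold and prime vesicles at the active zone, Rab3 and its effectors tether them, synaptotagmins sense calcium, and complexins and Munc18-type proteins bind the SNAREs. NSF takes used complexes apart. In cortex these proteins are made mainly by neurons, while several relatives in the set serve membrane traffic in every cell type.

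Rbm5 signal, which checks the genotype labels, was 9.75 ± 0.038 in KO CCI, 9.76 ± 0.065 in KO sham, 10.66 ± 0.063 in WT CCI and 10.78 ± 0.042 in WT sham (SD, n = 7 each), and the highest KO array, at 9.84, lay below the lowest WT array, at 10.59. Array medians lay between 5.79 and 5.9. The mean signal of 10 neuron markers was 11.27 to 11.49 over the KO CCI arrays and 11.52 to 11.66 over KO sham, against 11.37 to 11.68 over WT CCI and 11.55 to 11.67 over WT sham. Of the 10, 3 were called lower and 0 higher with impact in KO (median -0.18), and 2 lower and 1 higher in WT (median 0.00). Rbfox3, a nuclear neuronal protein, and Nefl, the neurofilament light chain, were lower in both genotypes, Nefh, the heavy chain, was lower in KO, and Eno2, the neuronal enolase, was higher in WT. All 9 markers of microglia and macrophages and all 8 of reactive astrocytes were called higher in both genotypes, and the microglia and macrophage mean was 8.75 to 9.81 in KO CCI and 7.29 to 7.71 in KO sham, against 8.89 to 9.99 in WT CCI and 7.17 to 7.41 in WT sham. The mean of 8 striatum markers spanned 7.08 to 9.92 over KO CCI arrays and 7.03 to 9.72 over WT CCI arrays, against 7.23 to 8.34 in KO sham and 7.18 to 7.73 in WT sham. It was highest on KO CCI replicate 40 and WT CCI replicate 35. Choroid plexus markers averaged up to 7.75 on KO CCI replicate 40, 8.02 on WT CCI replicate 14 and 7.89 on WT sham replicate 25. Both lists mark tissue other than cortex. The counts of calls were also taken without the 7 arrays that an earlier analysis of these data had listed for such signal. Most of the 7 were WT CCI arrays, which left WT CCI the smallest group, and 2 were KO CCI arrays. The median KO CCI array had a striatum marker mean of 8.17, above the highest WT sham array at 7.73. KO CCI arrays above the WT sham range therefore remained, and this setting is not free of striatum signal.

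A row was called at a limma adjusted p under 0.05 over all 65956 rows tested. With impact in KO, 7 of the 86 members were called higher and 23 lower, against 8.43% and 8.27% of all rows. With impact in WT, 11 were called higher and 22 lower, against 8.86% and 7.96% of all rows. Among rows with 1 gene symbol the shares were 12.7% higher and 8.8% lower in KO, and 14.1% higher and 8.39% lower in WT. The median log2 change of the members was -0.08 in KO and -0.06 in WT, beside 0.012 and -0.023 over all rows. The groups did not overlap for 14 members in KO and 21 in WT, each of them called, against 6.38% and 7.26% of all rows, or 9.71% and 11.5% of rows with 1 gene symbol. Of the 30 calls in KO and 33 in WT, 25 were made in both genotypes, each in the same direction (18 lower, 7 higher), which is 83.3% of the KO calls and 75.8% of the WT calls. Without the 7 arrays, 8 members were called higher and 21 lower in KO, and 7 higher and 20 lower in WT. In that setting 21 were called in both genotypes (16 lower, 5 higher), and the WT counts rested on fewer CCI arrays than the KO counts.

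Counted by role, of the 37 genes in release roles, 16 were called lower and 0 higher in KO, and 16 lower and 1 higher in WT, with median changes of -0.18 and -0.16. Among the other 49 members 7 were called lower and 7 higher in KO, and 6 lower and 10 higher in WT, with medians of -0.02 in each. Without the 7 arrays the release roles had 16 lower and 0 higher in KO, and 15 lower and 1 higher in WT, and the other members had 5 lower and 8 higher in KO, and 5 lower and 6 higher in WT. A mean signal below the lowest array median of 5.79, not shown to lie above background, was found for 11 of the 86. None of these was called in either injury comparison.

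**Figure D1:**
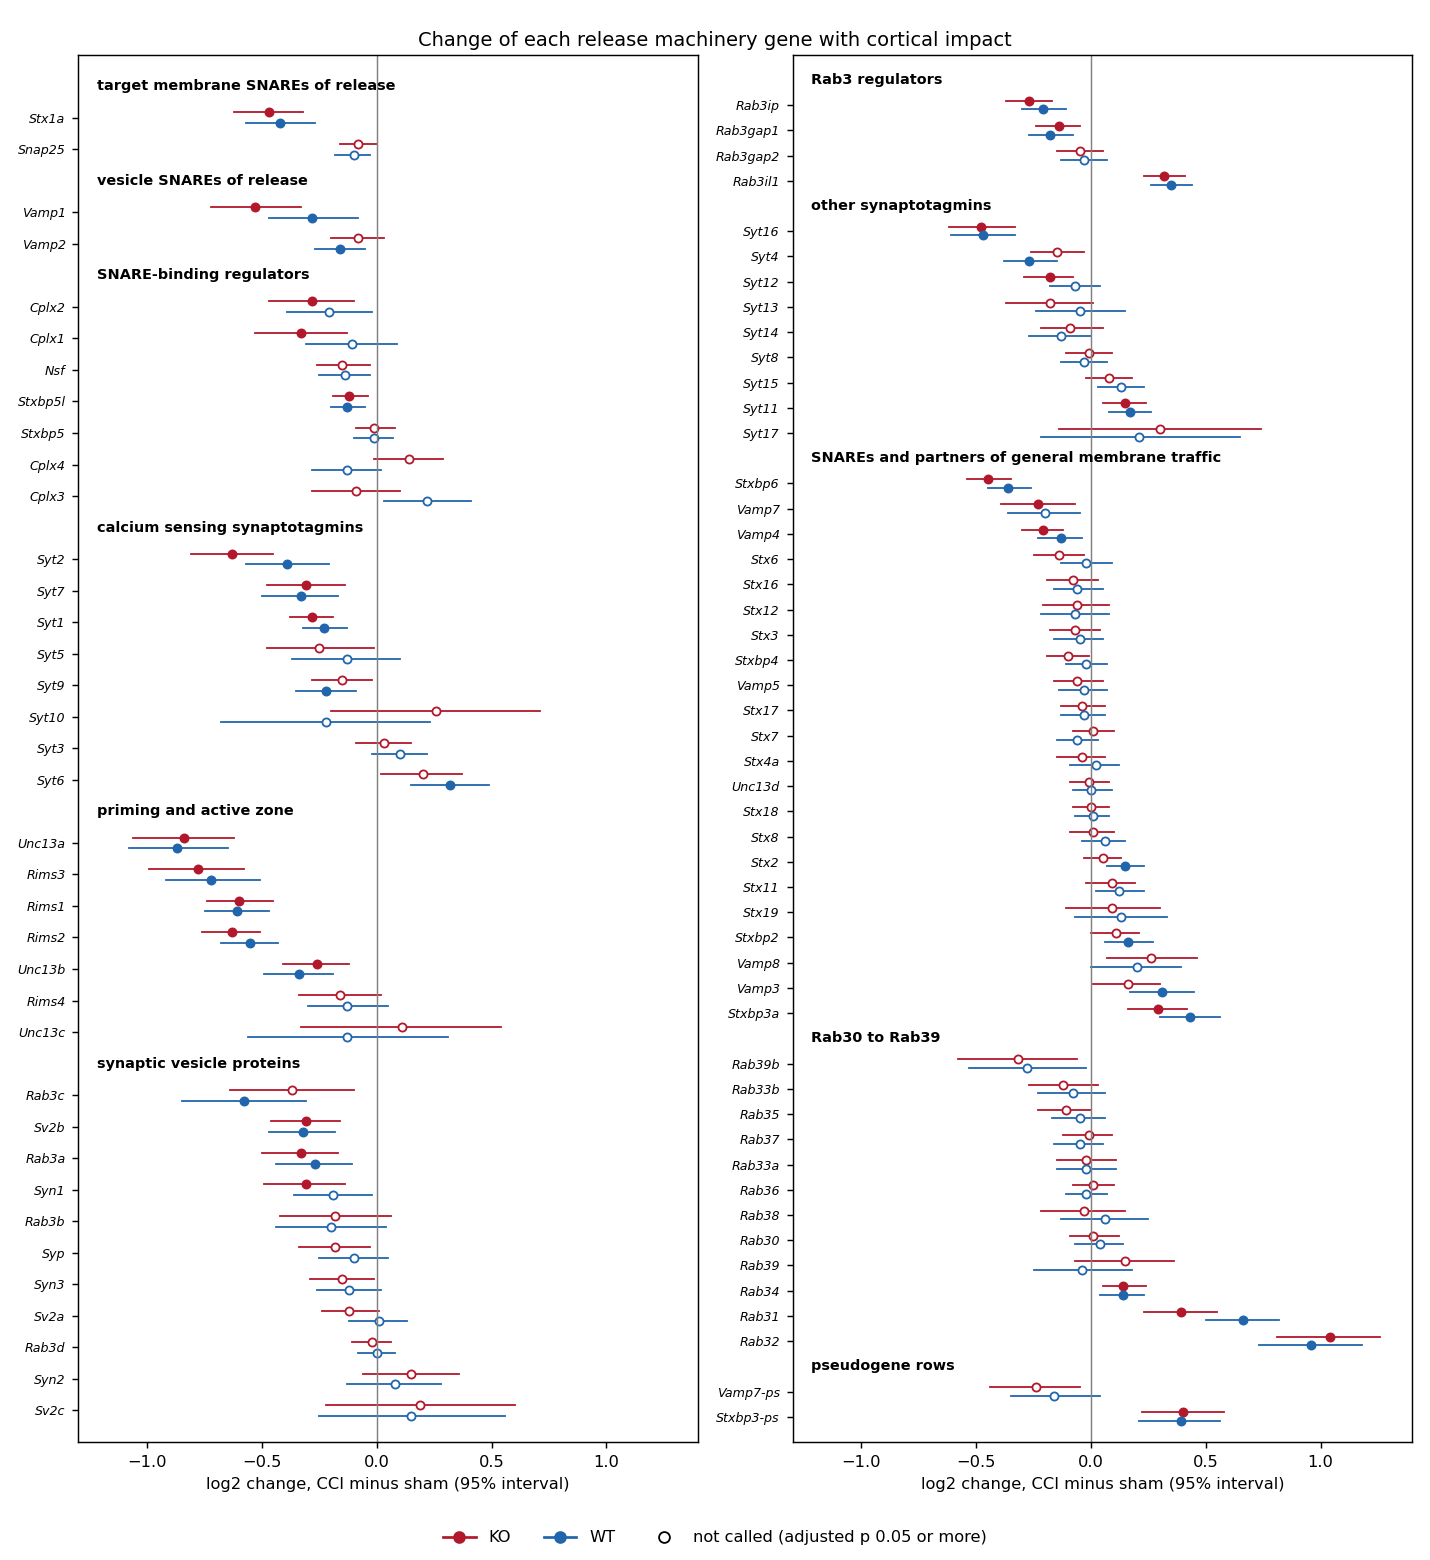
Log2 change of each of the 86 members with impact (CCI minus sham, x axis), by role, in KO (red) and WT (blue). Points are limma estimates, bars their 95% intervals, and filled points were called at an adjusted p under 0.05. The priming gene Unc13a lies farthest to the left, at -0.84 in KO and -0.87 in WT, and Rab32 farthest to the right, at 1.04 in KO and 0.96 in WT.

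Promoter windows show what the sequences of members that moved together or apart look like at their start sites. The windows come from RefSeq on GRCm38.p6 and run from 250 bases before to 50 bases after an annotated start, and 65 of the 86 members had at least 1. Below, each is read 5′ to 3′ on the strand of its gene, and capitals mark the GC box searched for, GGGCGG or its reverse complement CCGCCC. Unc13a and Rims3 are shown as the members that fell most, Vamp1 as the member with the largest genotype difference, and Rab32 as the member that rose most.
Unc13a chr8:71671708-71672007 (- strand): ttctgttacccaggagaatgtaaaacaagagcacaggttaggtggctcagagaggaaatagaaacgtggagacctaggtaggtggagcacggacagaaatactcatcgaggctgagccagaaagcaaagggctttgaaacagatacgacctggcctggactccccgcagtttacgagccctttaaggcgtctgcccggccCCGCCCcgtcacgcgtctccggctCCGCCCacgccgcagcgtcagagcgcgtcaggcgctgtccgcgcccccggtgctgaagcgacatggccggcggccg
Rims3 chr4:120854549-120854848 (+ strand): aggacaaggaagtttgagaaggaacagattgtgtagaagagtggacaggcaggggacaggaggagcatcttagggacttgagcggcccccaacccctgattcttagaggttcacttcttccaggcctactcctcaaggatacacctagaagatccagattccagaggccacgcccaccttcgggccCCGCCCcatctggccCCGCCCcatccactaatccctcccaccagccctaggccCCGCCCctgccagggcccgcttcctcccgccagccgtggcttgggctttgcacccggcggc
Vamp1 chr6:125215331-125215630 (+ strand): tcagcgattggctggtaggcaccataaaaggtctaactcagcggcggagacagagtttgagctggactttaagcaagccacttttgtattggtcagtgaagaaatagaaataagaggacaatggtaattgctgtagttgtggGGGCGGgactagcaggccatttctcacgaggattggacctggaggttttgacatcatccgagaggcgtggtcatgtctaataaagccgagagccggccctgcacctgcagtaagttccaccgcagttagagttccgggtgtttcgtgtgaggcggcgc
Rab32 chr10:10558158-10558457 (- strand): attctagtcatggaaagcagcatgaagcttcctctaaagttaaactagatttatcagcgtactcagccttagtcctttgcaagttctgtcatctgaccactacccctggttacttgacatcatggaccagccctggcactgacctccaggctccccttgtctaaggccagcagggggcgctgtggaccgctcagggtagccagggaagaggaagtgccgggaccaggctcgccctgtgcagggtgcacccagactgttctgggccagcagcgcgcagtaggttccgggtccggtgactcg
These windows held 2 GC boxes at Unc13a, 3 at Rims3, 1 at Vamp1 and 0 at Rab32. Of 85 windows of members, 57 held the box (67.1%), against 11714 of 32851 windows of all genes (35.7%). The latter came from 27025 genes that were not matched to the members in kind of gene, so the 2 shares are not like for like. The share was 71.1% in the 6 release roles, 27 of 38 windows, and 63.8% in the other roles, 30 of 47 windows. Windows of 1 gene can overlap, and these counts describe letters and say nothing of binding.

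Genes of vesicle priming and the active zone had the lowest median change of the roles. Of the 7, 5 were called lower in each genotype, with a role median of -0.60 in KO and -0.55 in WT. Unc13a encodes Munc13-1, the main priming factor of cortical glutamate synapses. Its lowest, median and highest signals were 10.35, 10.68 and 10.82 in KO CCI, against 11.34, 11.51 and 11.63 in KO sham. In WT they were 10.07, 10.77 and 11.16 after CCI, against 11.44, 11.48 and 11.64 after sham. No CCI array reached a sham array of its genotype, and the WT CCI arrays spread widest. The log2 change was -0.84 in KO (SE 0.11, limma adjusted p = 1.64e-06) and -0.87 in WT (SE 0.11, adjusted p = 5.47e-07), or 1.79-fold and 1.82-fold lower.

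The Rim genes encode scaffolds that link Rab3, Munc13 and calcium channels. Rims1 signal ran from 11.78 over a median of 11.91 to 12.09 in KO CCI, against 12.47, 12.55 and 12.65 in KO sham. After CCI in WT its lowest, median and highest were 11.78, 12.10 and 12.31, against 12.57, 12.68 and 12.78 after sham. Both genotypes showed 2 separate groups of arrays. Its change was -0.60 in KO (SE 0.069, limma adjusted p = 3.5e-07) and -0.61 in WT (SE 0.068, adjusted p = 1.18e-07).

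Rims2 signal was 11.29, 11.32 and 11.53 (lowest, median, highest) in KO CCI, against 11.93, 12.05 and 12.09 in KO sham. For WT the values were 11.13, 11.42 and 11.53 after CCI, against 11.75, 11.95 and 11.99 after sham. Every CCI array again lay below every sham array of its genotype. Rims2 fell by 0.63 in KO (SE 0.06, limma adjusted p = 1.05e-08) and fell by 0.55 in WT (SE 0.059, adjusted p = 5.7e-08) on the log2 scale, and these were the smallest adjusted p-values among the members in each genotype.

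Rims3, which encodes a short Rim without the Rab3-binding part, had 8.64, 8.70 and 9.28 in KO CCI, against 9.24, 9.67 and 9.69 in KO sham. In WT the signals were 8.71, 9.0 and 9.30 after CCI, against 9.45, 9.83 and 9.92 after sham. One KO sham array, replicate 9, sat apart from its group at 9.24 and just below the highest KO CCI array, while the WT groups did not overlap. Changes were -0.78 in KO (SE 0.1, limma adjusted p = 1.64e-06) and -0.72 in WT (SE 0.099, adjusted p = 3.79e-06).

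Unc13b, encoding Munc13-2, changed by -0.26 in KO (SE 0.072, limma adjusted p = 0.00963) and by -0.34 in WT (SE 0.071, adjusted p = 0.00087). Its KO groups overlapped, at up to 9.27 in CCI and down to 9.14 in sham, and its WT groups did not, at up to 9.03 in CCI and down to 9.14 in sham. The 2 priming genes not called were Rims4, at -0.16 in KO and -0.13 in WT, and Unc13c, which encodes the cerebellar Munc13-3 and had 95% intervals of -0.33 to 0.54 in KO and -0.56 to 0.31 in WT. Calls on Unc13a, Rims1, Rims2 and Rims3 held in both genotypes without any 1 array and within each of the 2 runs of title numbers. In numbers 1 to 24 the change of Unc13a was -0.85 in KO and -0.59 in WT, and in numbers 25 to 42 it was -0.81 in KO and -1.23 in WT. Without the 7 arrays it was -0.94 in each genotype.

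**Figure D2:**
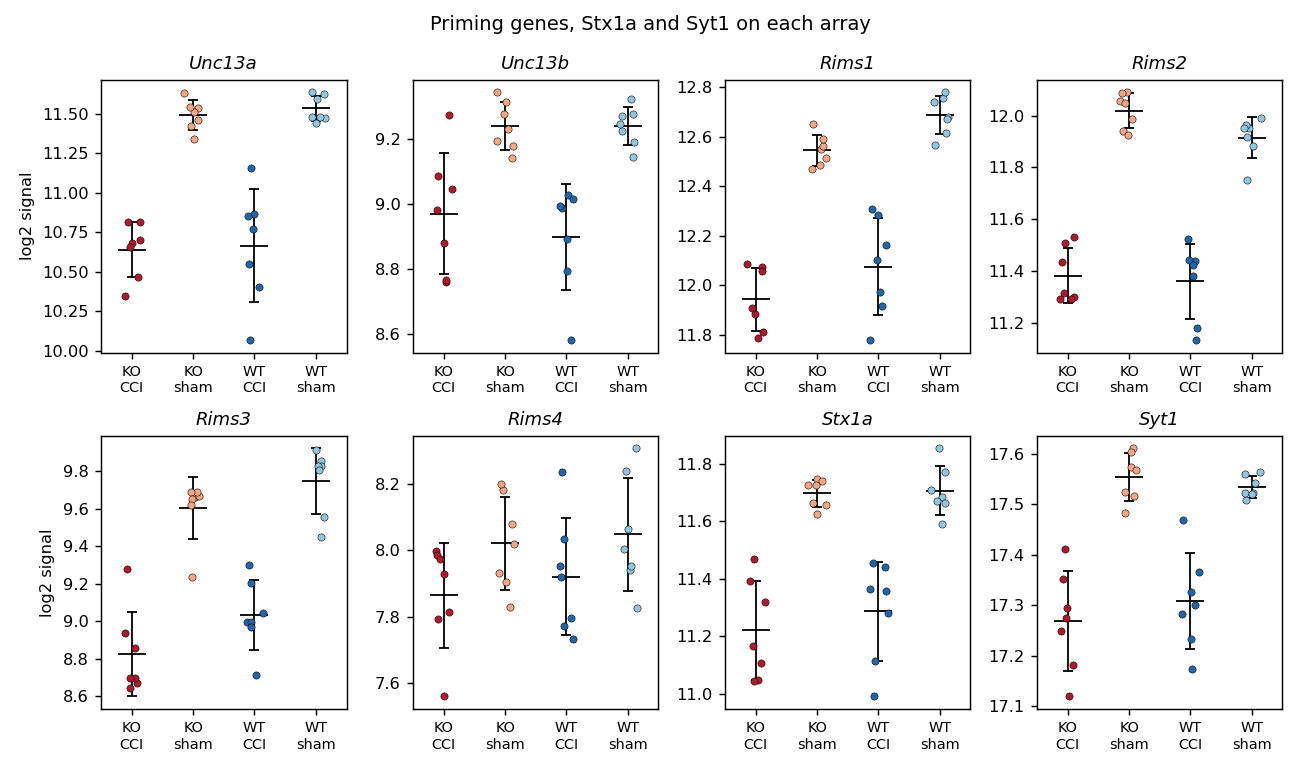
Log2 signal of 6 priming genes, Stx1a and Syt1 on each array (points), with group means and SD (bars, n = 7), in KO CCI, KO sham, WT CCI and WT sham from left to right. Every CCI array of Unc13a, Rims1, Rims2, Stx1a and Syt1 lies below every sham array of its genotype, and the groups of Rims4 overlap. Each panel has its own scale.

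Of the target membrane SNAREs, Stx1a was called lower in both genotypes. Stx1a, one of the syntaxins that bind SNAP-25 at the release site, had 11.04, 11.16 and 11.47 in KO CCI, against 11.63, 11.72 and 11.75 in KO sham. It had 10.99, 11.36 and 11.46 in WT CCI, against 11.59, 11.68 and 11.85 in WT sham. The groups did not overlap in either genotype. Stx1a fell by 0.47 in KO (SE 0.072, limma adjusted p = 2.09e-05) and fell by 0.42 in WT (SE 0.071, adjusted p = 6.99e-05) on the log2 scale, and within numbers 25 to 42 the KO change of -0.55 was not called (adjusted p = 0.059).

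Snap25 signals were 18.61, 18.72 and 18.75 in KO CCI, against 18.75, 18.78 and 18.83 in KO sham. In WT they were 18.57, 18.72 and 18.77 after CCI, against 18.71, 18.80 and 18.87 after sham. Medians were lower after impact, yet the arrays overlapped. The change of -0.08 in KO (95% interval -0.16 to -0.00, limma adjusted p = 0.16) and of -0.10 in WT (-0.18 to -0.03, adjusted p = 0.0555) was not called. Only 313 of the 65956 rows were brighter than Snap25, and whether signal followed RNA amount in proportion at that brightness was not tested.

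Vamp1 and Vamp2 encode the synaptobrevins. Vamp1, which serves spinal cord, brainstem and some inhibitory cortical terminals, had 9.62, 10.01 and 10.27 in KO CCI, against 10.09, 10.47 and 10.60 in KO sham. In WT it had 10.22, 10.56 and 10.61 after CCI, against 10.49, 10.71 and 11.11 after sham. Groups overlapped in both genotypes, in KO through sham replicate 9 at 10.09. It changed by -0.53 in KO (SE 0.096, limma adjusted p = 0.000202) and by -0.28 in WT (SE 0.095, adjusted p = 0.0459).

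The WT call on Vamp1 was lost when any 1 of 16 arrays was left out (adjusted p up to 0.116). Within title numbers 1 to 24 alone the change was -0.36 in KO (limma adjusted p = 0.0712) and -0.11 in WT (adjusted p = 0.648), and within 25 to 42 it was -0.78 in KO and -0.49 in WT, both called. The 16 arrays were WT sham replicates 1, 3, 25, 26 and 27, WT CCI replicates 15, 16, 34, 35 and 36, KO sham replicates 10, 11, 12 and 33 and KO CCI replicates 23 and 42. Vamp2, the synaptobrevin of most forebrain synapses, had 10.63, 10.84 and 10.87 in KO CCI, against 10.71, 10.90 and 11 in KO sham. Its WT signals were 10.47, 10.67 and 10.81 after CCI, against 10.74, 10.80 and 10.97 after sham, and both pairs of groups overlapped. The change was -0.08 in KO (limma adjusted p = 0.376) and -0.16 in WT (adjusted p = 0.0478). That WT call was lost without any 1 of 20 arrays (adjusted p up to 0.126), and without the 7 arrays the change was -0.07 (adjusted p = 0.541). The 20 were WT sham 1, 3, 25, 26 and 27, WT CCI 14, 16, 34 and 35, KO sham 10, 11, 12, 32 and 33, and KO CCI 21, 22, 23, 24, 41 and 42.

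Of the 7 SNARE-binding regulators 3 were called lower in KO and 1 in WT, and without the 7 arrays 1 was called lower in KO, and 2 lower and 1 higher in WT. Cplx1 encodes a complexin that clamps and promotes fusion, and its signals were 13.49, 14.01 and 14.37 in KO CCI, against 14.09, 14.32 and 14.45 in KO sham. The WT values were 13.86, 14.16 and 14.35 after CCI, against 14.04, 14.24 and 14.42 after sham. All of these groups overlapped widely. The KO change of -0.33 (SE 0.098, limma adjusted p = 0.019) was lost without KO CCI replicate 40 (adjusted p = 0.0655), and the WT change of -0.11 was not called (adjusted p = 0.513). Cplx2, the complexin of most excitatory neurons, had -0.28 in KO (limma adjusted p = 0.0293) and -0.21 in WT (adjusted p = 0.127). Its KO call was lost without any 1 of KO sham 11, 12, 31 and 33 or KO CCI 24, 40 and 42. Without the 7 arrays Cplx2 was called lower in both genotypes, at -0.34 in KO (adjusted p = 0.00124) and -0.35 in WT (adjusted p = 0.00289).

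Stxbp5l, which encodes a tomosyn that holds syntaxin away from VAMP, was called lower by small steps, at -0.12 in KO (adjusted p = 0.024) and -0.13 in WT (adjusted p = 0.0136). Its KO call was lost without KO sham replicate 10 or 33 or KO CCI replicate 40 (adjusted p up to 0.0599). Nsf was not called, at -0.15 in KO (95% interval -0.26 to -0.03) and -0.14 in WT (-0.25 to -0.03). Stxbp5, the other tomosyn, was at -0.01 in each genotype.

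Of the 8 calcium-sensing synaptotagmins 3 were called lower in KO, and 4 lower and 1 higher in WT. Syt1, the fast calcium sensor of most forebrain synapses, had 17.12, 17.27 and 17.41 in KO CCI, against 17.48, 17.57 and 17.61 in KO sham. In WT the signals were 17.17, 17.30 and 17.47 after CCI, against 17.51, 17.52 and 17.56 after sham. The arrays separated without overlap in both genotypes, though the distance was short. Syt1 fell by 0.28 in KO (SE 0.046, limma adjusted p = 5.03e-05) and fell by 0.23 in WT (SE 0.046, adjusted p = 0.000558), which is 1.22-fold and 1.17-fold lower.

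Syt2, a fast sensor known in cortex from inhibitory fast-spiking interneurons, had 7.08, 7.35 and 7.54 in KO CCI, against 7.74, 7.97 and 8.07 in KO sham. Its WT signals were 7.60, 7.80 and 8.07 after CCI, against 7.91, 8.25 and 8.41 after sham. The KO groups did not overlap and the WT groups did. Syt2 changed by -0.63 in KO (SE 0.088, limma adjusted p = 6.18e-06) and by -0.39 in WT (SE 0.087, adjusted p = 0.00183). Syt7, a slower sensor of asynchronous release, was at -0.31 in KO (adjusted p = 0.00761) and -0.33 in WT (adjusted p = 0.0039), and its WT groups did not overlap.

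Syt9 was at -0.15 in KO (limma adjusted p = 0.101) and was called lower in WT, at -0.22 (adjusted p = 0.0118). Syt6, known from the acrosome of sperm, was at 0.20 in KO (adjusted p = 0.122) and was the release-role gene called higher in WT, at 0.32 (adjusted p = 0.00721). Without the 7 arrays that Syt6 call was lost. Its signals were 6.43, 6.71 and 7.10 in KO CCI and 6.44, 6.52 and 6.61 in KO sham, and 6.47, 6.64 and 6.96 in WT CCI and 6.25, 6.37 and 6.52 in WT sham. Syt3, Syt5 and Syt10 were not called, and Syt10 had wide 95% intervals, -0.20 to 0.71 in KO and -0.68 to 0.23 in WT.

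Of the 11 synaptic vesicle proteins 3 were called lower in each genotype, Sv2b and Rab3a in both, and without the 7 arrays 4 were called lower in KO and 1 in WT. Sv2b encodes a vesicle membrane glycoprotein, and its signals were 14.77, 14.92 and 15.28 in KO CCI, against 15.07, 15.26 and 15.44 in KO sham. In WT they were 14.74, 14.97 and 15.04 after CCI, against 15.09, 15.23 and 15.38 after sham. Groups overlapped in KO and just failed to in WT. The change was -0.31 in KO (SE 0.071, limma adjusted p = 0.00233) and -0.32 in WT (SE 0.071, adjusted p = 0.00142), and without the 7 arrays the WT value of -0.25 was not called (adjusted p = 0.073).

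Rab3a, the main vesicle-bound Rab3, had 9.08, 9.47 and 9.64 in KO CCI, against 9.61, 9.73 and 9.92 in KO sham. Its WT signals were 9.21, 9.53 and 9.71 after CCI, against 9.71, 9.76 and 9.86 after sham. In both genotypes the highest CCI arrays met the lowest sham arrays. It fell by 0.33 in KO (SE 0.081, limma adjusted p = 0.00384) and fell by 0.27 in WT (SE 0.08, adjusted p = 0.0173), and the WT call was lost without WT CCI replicate 34 (adjusted p = 0.0549).

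Within the runs of title numbers alone, which hold fewer arrays, several of these calls were lost while the sign stayed. Within numbers 1 to 24 the WT change was -0.16 for Syt1 (limma adjusted p = 0.101), -0.29 for Syt2 (adjusted p = 0.133) and -0.13 for Rab3a (adjusted p = 0.388). Within numbers 25 to 42 Rab3a was at -0.38 in KO (adjusted p = 0.094), and Sv2b was at -0.24 in KO (adjusted p = 0.388) and -0.25 in WT (adjusted p = 0.33).

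The third call was Syn1 in KO and Rab3c in WT. Syn1, a synapsin that tethers vesicles to the reserve pool, was at -0.31 in KO (limma adjusted p = 0.00989) and -0.19 in WT (adjusted p = 0.14). Rab3c was at -0.37 in KO (adjusted p = 0.0529) and -0.58 in WT (adjusted p = 0.00179), and the WT value was -0.30 without the 7 arrays (adjusted p = 0.168). Synaptophysin, Syp, widely used to mark synapses, was not called. It had 9.57, 10.08 and 10.15 in KO CCI, against 9.99, 10.18 and 10.31 in KO sham. The WT values were 9.77, 10.08 and 10.15 after CCI, against 10.04, 10.14 and 10.29 after sham. The medians lay close together and the groups overlapped, with changes of -0.18 in KO (95% interval -0.34 to -0.03) and -0.10 in WT (-0.25 to 0.05). Sv2a, the binding site of levetiracetam, was at -0.12 in KO and 0.01 in WT, and Syn2 at 0.15 in KO and 0.08 in WT, all uncalled.

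**Figure D3:**
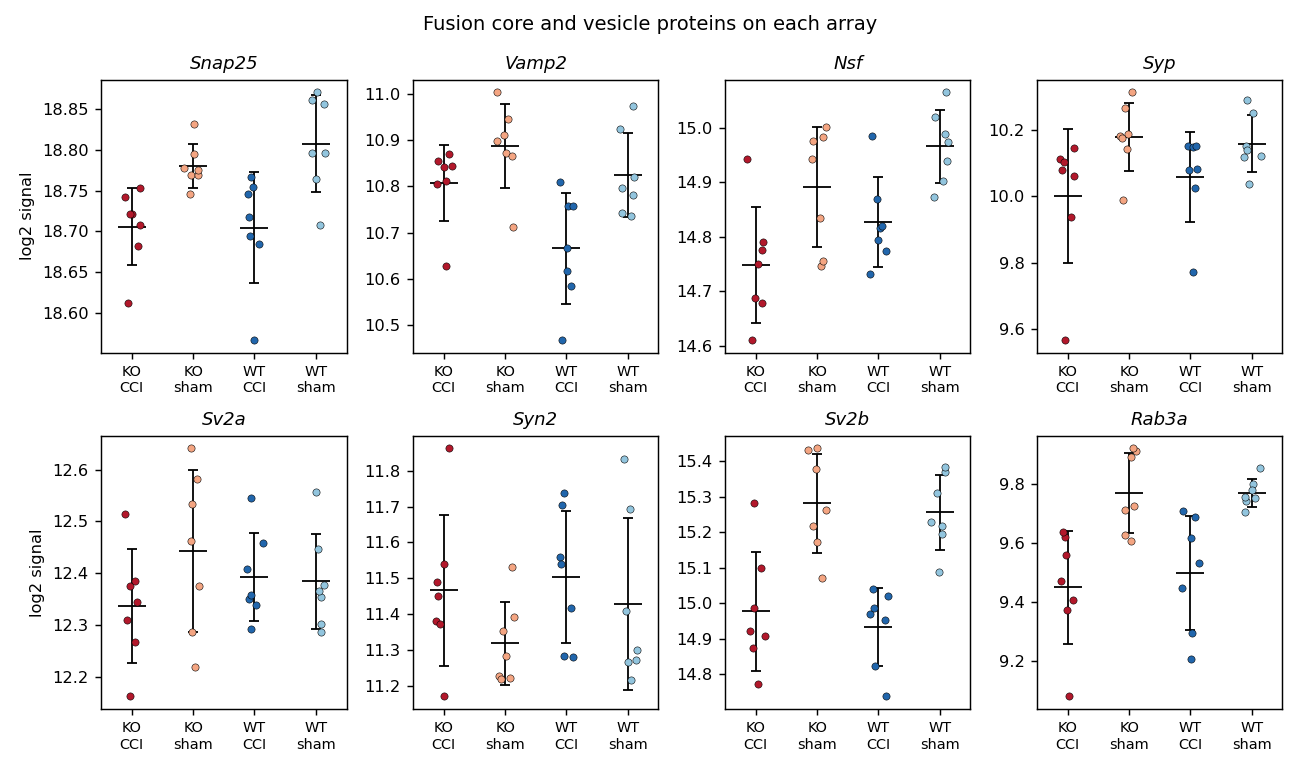
Log2 signal of Snap25, Vamp2, Nsf, Syp, Sv2a, Syn2, Sv2b and Rab3a on each array (points), with group means and SD (bars, n = 7), in KO CCI, KO sham, WT CCI and WT sham from left to right. Of these, Sv2b and Rab3a were called lower with impact in both genotypes and Vamp2 in WT alone, with no difference between the genotypes called. Each panel has its own scale.

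Outside the release roles 7 of 49 members were called higher in KO and 10 of 49 in WT. Among rows with 1 gene symbol 12.7% were called higher in KO and 14.1% in WT. The KO count lay near that share, and neither count was tested against it. The group Rab30 to Rab39 held 3 of the members called higher in each genotype. SNAREs and partners of general membrane traffic held 1 in KO and 4 in WT. Rab32, a GTPase of mitochondria and lysosome-related organelles, had 6.37, 6.96 and 7.24 in KO CCI, against 5.63, 5.87 and 5.97 in KO sham. In WT it had 6.53, 6.88 and 7.13 after CCI, against 5.68, 5.88 and 6.10 after sham. All CCI arrays lay above all sham arrays. It rose by 1.04 in KO (SE 0.11, limma adjusted p = 9.88e-08) and by 0.96 in WT (SE 0.11, adjusted p = 1.97e-07). Sham signals lay around the array medians and were not shown to be above background, so the folds of 2.05 and 1.94 are not exact.

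Rab31, which works between the Golgi and endosomes, had 10.06, 10.48 and 10.65 in KO CCI, against 9.83, 9.99 and 10.06 in KO sham. Its WT signals were 10.27, 10.54 and 10.66 after CCI, against 9.72, 9.83 and 9.93 after sham. The groups met in KO and were apart in WT. The rise was 0.39 in KO (SE 0.078, limma adjusted p = 0.000613) and 0.66 in WT (SE 0.077, adjusted p = 2.54e-07). The difference of the 2 changes, -0.28 (95% interval -0.50 to -0.05), had an unadjusted p of 0.0183 and an adjusted p of 0.779 in limma. Rab34, a Golgi and lysosome-positioning GTPase, rose by 0.14 in each genotype, and both calls were lost without single arrays (adjusted p up to 0.0829 in KO and 0.0852 in WT). In KO these were KO sham 10, 12 and 33 and KO CCI 21, 23 and 41, and in WT they were WT sham 1, 2, 3 and 27 and WT CCI 13, 16, 34, 35 and 36. With each array centred on its median both calls on Rab34 were also lost.

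Stxbp3a, the older symbol of Stxbp3, encodes Munc18c, which binds plasma membrane syntaxins outside synapses. It had 9.23, 9.48 and 9.69 in KO CCI, against 9.04, 9.23 and 9.30 in KO sham. In WT it had 9.39, 9.47 and 9.76 after CCI, against 8.93, 9.06 and 9.19 after sham. One KO CCI array lay among the sham arrays, and the WT groups did not overlap. It rose by 0.29 in KO (SE 0.064, limma adjusted p = 0.00155) and by 0.43 in WT (SE 0.064, adjusted p = 1.17e-05). The pseudogene row Stxbp3-ps rose by 0.40 in KO and 0.39 in WT, and since pseudogene and gene share sequence, the source of either signal is uncertain.

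Rab3il1, an exchange factor that acts on Rab3a, rose by 0.32 in KO (limma adjusted p = 4.6e-06) and by 0.35 in WT (adjusted p = 6.36e-07). Its signals were 6.41 to 6.56 in KO CCI and 6.13 to 6.21 in KO sham, and 6.34 to 6.62 in WT CCI and 6.08 to 6.25 in WT sham, with no overlap. The other called Rab3 regulators moved down. Rab3ip, encoding the exchange factor Rabin8, was at -0.27 in KO and -0.21 in WT. Rab3gap1, the catalytic subunit of a Rab3 GTPase-activating complex, was at -0.14 in KO (adjusted p = 0.0286) and -0.18 in WT (adjusted p = 0.00577), and its KO call was lost without KO sham 10 or 11 or KO CCI 21, 22 or 24 (adjusted p up to 0.0807).

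Syt11, a synaptotagmin that does not bind calcium, rose by 0.15 in KO (limma adjusted p = 0.0226) and by 0.17 in WT (adjusted p = 0.00839), and the KO call was lost without KO sham 10 or 11 or KO CCI 21 or 42 (adjusted p up to 0.066). Both calls on Syt11 were lost under quantile normalization, and the KO call was also lost with each array centred on its median. In WT alone, calls were also made on the endosomal SNARE Vamp3, at 0.16 in KO and 0.31 in WT (adjusted p = 0.00164), on Stx2, at 0.05 in KO and 0.15 in WT, and on Stxbp2, the Munc18 of immune granule release, at 0.11 in KO and 0.16 in WT. The Stxbp2 call was lost without WT sham 1 or 26 or WT CCI 13 or 14 (adjusted p up to 0.0757). No difference between the genotypes' changes was called for these genes. Within numbers 25 to 42 alone, limma calls were lost on Rab31 in KO (adjusted p = 0.226) and on Rab3il1 in KO (adjusted p = 0.0933). Calls lost there also included Stxbp3a in KO (adjusted p = 0.179) and WT (adjusted p = 0.0584) and Vamp3 in WT (adjusted p = 0.316). Both Syt11 calls were lost there too, while Rab32 stayed called in both runs and genotypes.

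**Figure D4:**
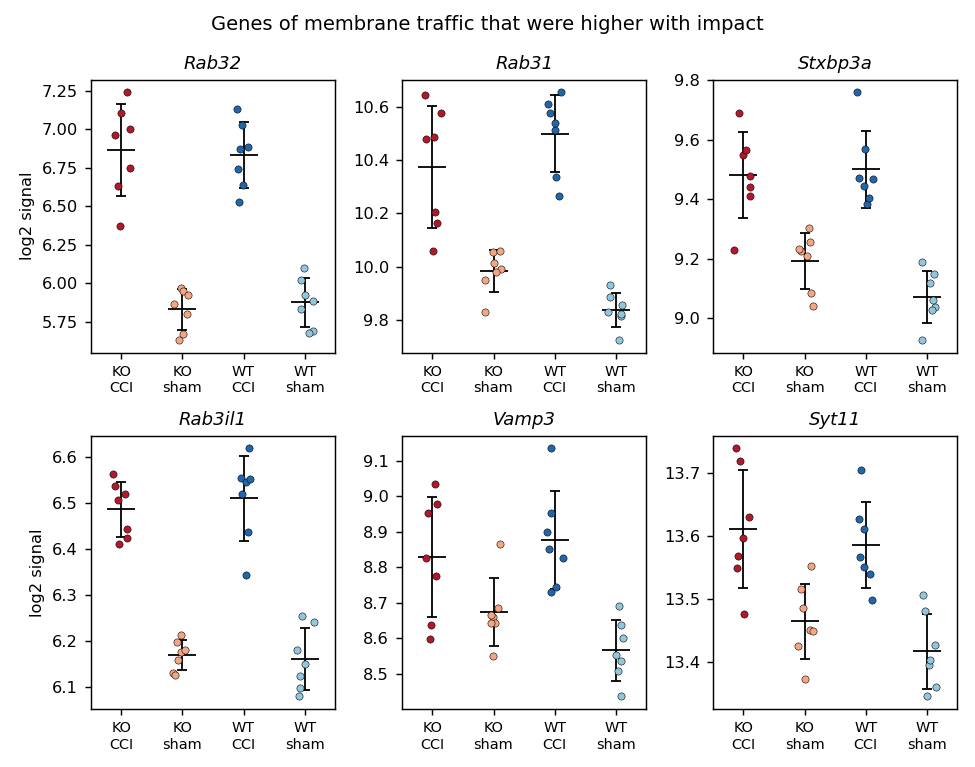
Log2 signal of Rab32, Rab31, Stxbp3a, Rab3il1, Vamp3 and Syt11 on each array (points), with group means and SD (bars, n = 7), in KO CCI, KO sham, WT CCI and WT sham from left to right. All CCI arrays of Rab32 and Rab3il1 lie above all sham arrays of their genotype. Vamp3 overlaps in KO alone, and Syt11 overlaps in both genotypes. Each panel has its own scale.

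Falls outside the release roles were led by Syt16 and Stxbp6. Syt16 encodes a synaptotagmin relative that does not bind calcium, and its signals were 9.22, 9.40 and 9.65 in KO CCI, against 9.78, 9.92 and 10.08 in KO sham. In WT they were 9.21, 9.30 and 9.63 after CCI, against 9.75, 9.82 and 9.97 after sham. Both genotypes showed no overlap. It fell by 0.48 in KO (SE 0.069, limma adjusted p = 1.18e-05) and fell by 0.47 in WT (SE 0.069, adjusted p = 8.03e-06).

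Stxbp6 encodes amisyn, which takes the place of VAMP in SNARE complexes. It had 8.81, 8.94 and 9.11 in KO CCI, against 9.30, 9.39 and 9.49 in KO sham, and 8.83, 8.97 and 9.07 in WT CCI, against 9.25, 9.32 and 9.38 in WT sham. These groups were also apart. It fell by 0.45 in KO (SE 0.046, limma adjusted p = 4.56e-08) and fell by 0.36 in WT (SE 0.045, adjusted p = 1.09e-06). Vamp4, a SNARE of the Golgi and endosomes, was at -0.21 in KO (adjusted p = 0.000931) and -0.13 in WT (adjusted p = 0.0339), the WT call being lost without WT sham 3, 4 or 25 or WT CCI 14, 35 or 36 (adjusted p up to 0.078). Vamp7, the SNARE of late endosomes, was called in KO at -0.23 (adjusted p = 0.0392) and was at -0.20 in WT (adjusted p = 0.0676). That KO call was lost without any 1 of KO sham 9, 10, 11, 12 and 33 or KO CCI 21, 22, 24, 40 and 41 (adjusted p up to 0.0931).

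A pair of gene lists of the pathway outside the name rule was read beside the members. Of 24 active zone scaffolds and fusion cofactors, 17 were called lower in KO and 15 in WT, with 0 higher, and the list medians were -0.31 and -0.25. Leaving out the 7 arrays, 16 were called lower in KO and 13 in WT. Cadps2, a priming factor of dense-core vesicles, fell by 0.82 in KO (SE 0.088) and fell by 0.79 in WT (SE 0.087). Lin7a, a scaffold partner of Cask, fell by 0.73 in KO and fell by 0.81 in WT. Rph3a, the Rab3 effector rabphilin, fell by 0.71 in KO and fell by 0.53 in WT. Cacna1a, the P/Q-type calcium channel pore, fell by 0.56 in KO and fell by 0.46 in WT. Ppfia2, encoding liprin-α2, fell by 0.53 in KO and fell by 0.67 in WT.

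Of 24 genes of vesicle filling and recycling, 8 were called lower and 2 higher in KO, and 7 lower and 2 higher in WT, with medians of -0.11 and -0.07. With the 7 arrays left out 6 were called lower in KO and 4 in WT, with 2 higher in each. Slc17a6, the vesicular glutamate transporter VGLUT2, fell by 0.69 in KO (SE 0.13) and fell by 0.62 in WT (SE 0.13). Pacsin1, an endocytic membrane-bending protein, fell by 0.50 in KO and fell by 0.38 in WT. The 2 rises in each genotype were the clathrin light chains Clta, at 0.33 in KO and 0.39 in WT, and Cltb, at 0.31 in KO and 0.49 in WT. Slc17a7, the main cortical glutamate transporter of vesicles, averaged 13.68 ± 0.29 in KO CCI and 13.80 ± 0.10 in KO sham, and 13.78 ± 0.21 in WT CCI and 13.80 ± 0.081 in WT sham (SD, n = 7 each). Whether a shift in the mix of cells had a part in the release genes' changes was not tested.

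Between genotypes, few members differed. In KO sham against WT sham 0 of 86 were called, beside 1.28% of all rows in either direction. By limma 9 had an unadjusted p under 0.05, and the smallest adjusted p, 0.0509, was that of Stx6. In KO CCI against WT CCI 2 were called lower and 0 higher, beside 0.428% and 0.226% of all rows. Over both procedures 3 were called lower and 2 higher, beside 1.8% and 1.36%. Among rows with 1 gene symbol the shares lower and higher were 1.19% and 0.654% after sham and 0.585% and 0.258% after CCI. Over both procedures they were 2.63% and 1.75%, and the members' counts there lay near these shares.

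Vamp1 and Syt2 were the members called after CCI and fell over both procedures as well. For Vamp1 the arrays ran from 9.62 to 10.27 in KO CCI, against 10.22 to 10.61 in WT CCI, and from 10.09 to 10.60 in KO sham, against 10.49 to 11.11 in WT sham. A single pair of arrays overlapped after CCI. Vamp1 was lower in KO by -0.56 after CCI (SE 0.095, limma adjusted p = 0.00181), by -0.31 after sham (SE 0.096, adjusted p = 0.117) and by -0.44 over both (SE 0.067, adjusted p = 0.000165), or 1.35-fold.

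For Syt2 the arrays ran from 7.08 to 7.54 in KO CCI, against 7.60 to 8.07 in WT CCI, and from 7.74 to 8.07 in KO sham, against 7.91 to 8.41 in WT sham. No overlap was seen after CCI. Syt2 was at -0.46 after CCI (SE 0.087, limma adjusted p = 0.00596), -0.22 after sham (SE 0.088, adjusted p = 0.297) and -0.34 over both (SE 0.062, adjusted p = 0.00117). Neither call after CCI was lost with any 1 array left out. With only the CCI arrays in the fit, which leaves the estimates at -0.56 and -0.46, the adjusted p-values were 0.0505 for Vamp1 and 0.0513 for Syt2 in limma. Both calls were also lost without the 7 arrays, where Vamp1 was at -0.35 (adjusted p = 0.338) and Syt2 at -0.37 (adjusted p = 0.223), a setting that removes 4 WT CCI and 2 KO CCI arrays. Over both procedures they remained called there, at -0.33 (adjusted p = 0.0402) and -0.31 (adjusted p = 0.0309).

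Within title numbers 1 to 24 the difference over both procedures was -0.42 for Vamp1 (limma adjusted p = 0.0194) and -0.38 for Syt2 (adjusted p = 0.0261). Within numbers 25 to 42 it was -0.44 (adjusted p = 0.105) and -0.29 (adjusted p = 0.488). Of the 10 neuron markers, the 3 neurofilament genes were called lower in KO over both procedures, Nefl by -0.35, Nefm by -0.28 and Nefh by -0.27. The other 7 were not called, and the list median was -0.01.

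Markers of other cell types also differed after CCI. All 7 endothelial markers were lower in KO CCI than in WT CCI (median -0.26), 2 of them called, Pecam1 and Cdh5, which were called over both procedures as well. Their mean signal was 8.63 to 9.06 in KO CCI, against 9.03 to 9.43 in WT CCI, and 8.32 to 8.76 in KO sham, against 8.44 to 8.83 in WT sham. All 7 oligodendrocyte markers were lower in KO CCI (median -0.38), Mbp alone called (limma adjusted p = 0.049), and after sham none was called (median 0.35). Their mean was 9.81 to 11 in KO CCI, against 10.76 to 11 in WT CCI, and 10.12 to 10.83 in KO sham, against 9.91 to 10.40 in WT sham. The part of these markers in the Vamp1 and Syt2 differences was not tested.

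The smaller calls over both procedures were in membrane traffic. Stx17, the SNARE of autophagosomes, had medians of 8.44 in KO CCI and 8.28 in WT CCI, and of 8.41 in KO sham and 8.30 in WT sham. It was higher in KO by 0.15 (SE 0.031, limma adjusted p = 0.00505), and all KO sham arrays lay above all WT sham arrays. Stx6, of the trans-Golgi network, was higher by 0.15 (SE 0.038, adjusted p = 0.0251), which was lost without WT sham replicate 1 or 2 (adjusted p up to 0.053). Rab30, a Golgi GTPase, was lower by -0.16 (SE 0.035, adjusted p = 0.0103), with no overlap after CCI, at 9.60 to 9.72 in KO against 9.72 to 9.96 in WT. Without the 7 arrays none of these 3 was called.

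**Figure D5:**
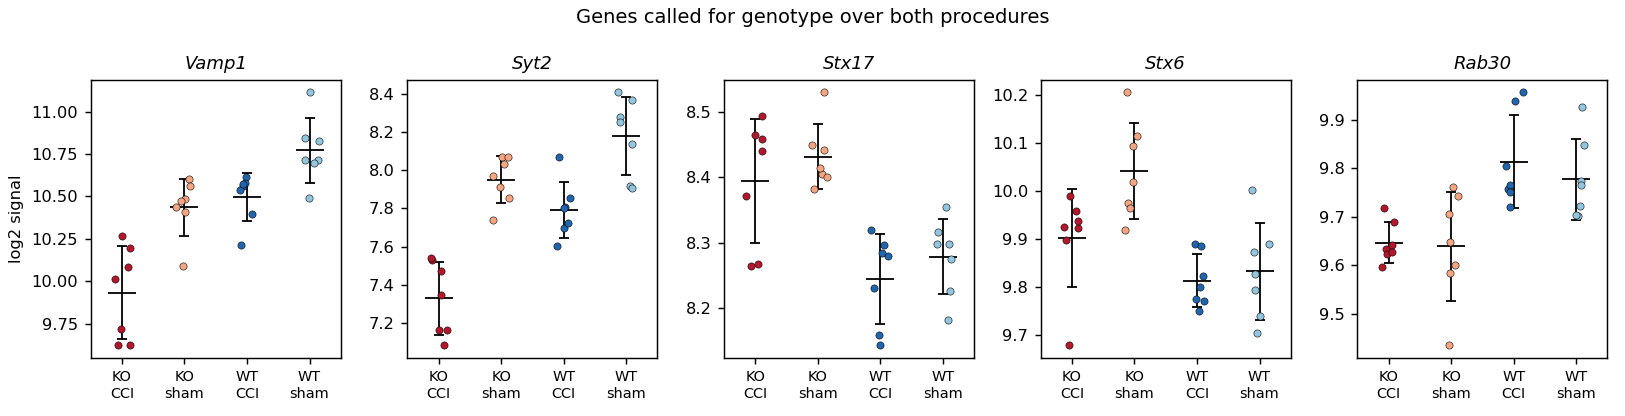
Log2 signal of the 5 members called between genotypes over both procedures on each array (points), with group means and SD (bars, n = 7), in KO CCI, KO sham, WT CCI and WT sham from left to right. Vamp1, Syt2 and Rab30 are lower in KO, and Stx17 and Stx6 higher. Each panel has its own scale.

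No genotype difference was called for Unc13a and Stx1a, which fell with impact, or for Snap25, which was not called with impact. Unc13a differed between KO and WT by -0.03 after CCI (95% interval -0.24 to 0.19) and by -0.05 after sham (-0.27 to 0.17). Stx1a was at -0.07 after CCI (-0.21 to 0.08) and -0.01 after sham (-0.16 to 0.13), and Snap25 at 0.00 after CCI (-0.07 to 0.08) and -0.02 after sham (-0.10 to 0.05).

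The difference between the injury changes of KO and WT was called for 0 of 86 members and 0% of all rows. By limma 3 members had an unadjusted p under 0.05. They were Cplx4, at 0.27 but below the array medians, Rab31 at -0.28 and Cplx3 at -0.32 (95% interval -0.58 to -0.05), and the smallest adjusted p was 0.779. Syt2 and Vamp1 had differences of -0.24 (-0.50 to 0.01) and -0.25 (-0.53 to 0.02). Without the 7 arrays these differences were -0.12 for Syt2 and -0.03 for Vamp1. Genes called in a single genotype, such as Cplx1 in KO or Vamp3 in WT, were thus not shown to differ between genotypes.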

How the data were processed

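The deposited table holds log2 signal of 72688 transcript clusters on 28 arrays, a scale read from the values themselves (2.21 to 19.93). RNA was extracted with Trizol and labelled from 100 ng, per the labels' protocols. The authors' normalization and software are not given in the sources used here, and nothing further was applied. The 6732 control rows were left out. Symbols came from the platform annotation. Differences were fitted with limma 3.58.1 in R 4.3.3 (lmFit, eBayes) as 4 group means plus a sex term, with p-values adjusted by Benjamini-Hochberg over 65956 rows.

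Members, lists and tests were chosen with earlier results of these data known. Genes named were a core set of release genes, the 10 called members that moved most in each direction per injury comparison, called members or the 5 smallest p-values per genotype comparison, and up to 4 genes of a pathway list per direction. Other members are given by role. Some genes of the lists were not analysed here.

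Title numbers run from 1 to 24 and from 25 to 42, each with all groups, and are not called batches in the labels. Alternatives were no sex term, run as covariate, only the compared groups, quantile normalization, median centring, a brightness filter, a variance trend, array weights, an adjusted p under 0.01, leaving out the 7 arrays or each array, and each run alone. Role, list and shared-call counts without the 7 arrays were added after seeing the data. On simulated data with 200 changed rows, a log2 change of 0.5 was recovered in 76.1% of cases for injury in KO, 77.6% for injury in WT, 82.1% for genotype after CCI and 44.8% for the difference between injury changes. At 0.25 the shares were 26.9%, 9.0%, 25.4% and 4.5%. Each comparison had its own random draw, with 67 rows at each of these sizes, so the shares do not rank the comparisons closely. In the data far more rows were called with impact, 5560 higher and 5457 lower in KO, and 5843 and 5251 in WT. The adjusted p is less strict where more rows change, so the injury shares do not describe the injury calls. Arrays carry no depth, and their number limits the precision. Figures were drawn with Python 3.11.15 and matplotlib 3.10.9.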

Additional observations from a re-analysis of the deposited data

Results flagged for a closer look

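For 40 genes, arrays were searched in each of the 4 groups for 1 whose distance from its nearest neighbour was large against the range of its group of 7. Of the 160 sets of 7 values 10 had one, where chance alone flags about 1 in 20. KO CCI replicate 40, which has high striatum and choroid plexus marker signal, was lowest of its group for Syp at 9.57 (next 9.94), for Vamp2 at 10.63 (next 10.80) and for Stxbp2 at 8.80 (next 8.96). WT CCI replicate 35, with high striatum marker signal, was lowest for Syn1 at 14.18 (next 14.56) and for Syp at 9.77 (next 10.03). KO sham replicate 9 was lowest for Rims3 at 9.24 (next 9.62) and for Vamp1 at 10.09 (next 10.41). WT CCI replicate 14 was lowest for Snap25 at 18.57 (next 18.68). KO CCI replicate 41 was lowest for Stx6 at 9.68 (next 9.90), and KO sham replicate 11 was highest for Vamp3 at 8.87 (next 8.69).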

How the results depend on the processing

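Among values of the named genes under the alternatives, 5235 of 5558 kept direction and call, 150 lost a call, 32 gained one, 141 changed sign while uncalled in both settings, and 0 called values turned. Values that stayed uncalled count as kept, and most settings were the 28 fits that leave out 1 array. The share kept therefore does not measure how firm the calls were. For injury in KO, numbers 25 to 42 alone gave 1 member higher and 9 lower. For injury in WT, 7 were higher without the 7 arrays, 6 higher and 10 lower in numbers 1 to 24, and 3 higher and 13 lower in numbers 25 to 42; these runs hold 4 and 3 arrays per group. KO against WT after sham gave 1 member higher with no sex term, the run covariate, median centring, the variance trend or array weights, and 2 with the brightness filter. After CCI, 0 were lower with only the compared groups, without the 7 arrays and in each run. Over both procedures, 1 was higher at an adjusted p under 0.01, 0 without the 7 arrays, 1 in numbers 1 to 24 and 0 in numbers 25 to 42, where 0 were lower. The cause of these shifts was not tested, and for a run alone its fewer arrays and the run itself cannot be told apart.

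Leaving out each array gave 5 to 8 members higher and 20 to 25 lower for injury in KO, 9 to 12 and 19 to 27 in WT, 0 to 1 higher for genotype after sham, 2 lower after CCI, and 1 to 3 higher and 3 to 4 lower over both. Whichever array was left out, 23 of the 30 injury calls in KO and 27 of the 33 in WT held. No paired analysis was possible because the title numbers are not shared between groups. For both procedures pooled and for the difference between injury changes the compared groups are all 4, so that fit was not run apart, and taking all rows of a symbol changed nothing, each having 1 row.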
